A study of Mus musculus with 42 samples.

Results

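Colonocytes absorb salt and water and crypt cells secrete them, and the genes described here encode 10 of the proteins that move sodium, chloride and potassium across the membranes of these cells. They are *Slc26a3*, *Slc9a3*, the 3 subunit genes of the epithelial sodium channel ENaC (*Scnn1a*, *Scnn1b*, *Scnn1g*), *Atp12a*, *Cftr*, *Slc12a2*, *Best2* and *Kcnn4*. They were chosen by gene symbol, as 10 of the 20462 genes listed in any of 9 tables of mouse colon RNA. All 10 were listed in each table and had a mean normalized count of at least 10 there, which was the minimum for a test. *Atp12a* passed this minimum in the proximal mutant tables through 1 of the 2 groups (mean of 5.24 in WT beside 34.1 in *Mtg16*-/-, and 6.67 in T/T beside 92.5 in WT).

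The 42 libraries come from 14 conditions of mice on a C57/BL6 background, at least 8 weeks old, and the labels give no sex per library. *Mtg16*-/- mice (labelled Mtg16-null) lack the corepressor MTG16, and in T/T mice both copies of the gene carry an engineered codon change (proline to threonine) meant to loosen the contact of MTG16 with E proteins. The mutants were bred in separate colonies, each with its own WT littermates. At baseline there were 2 proximal libraries per genotype in each colony, 4 distal libraries each of WT and *Mtg16*-/-, 3 distal of the T/T colony's WT and 4 of T/T. Proximal crypts were freed by chelation from the first 5 cm of colon, distal crypts from the last 5 cm. After 5 days of 2% dextran sulfate sodium (DSS) in the drinking water, which injures the colon epithelium, and 4 days of plain water, distal crypts gave 3 WT and 4 *Mtg16*-/- libraries of one colony and 3 WT and 3 T/T libraries of the other. Whole distal tumors, 3 of WT and 3 of T/T mice, followed 10 mg/kg azoxymethane (AOM, a carcinogen) and 3 cycles of 3% DSS, each of 4 days with 16 days of water. The labels do not say that each library is a separate mouse, so p-values measure the spread between libraries, part of which may be technical.

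In the surface epithelium, sodium and chloride enter through paired exchangers: SLC9A3 (NHE3) takes up sodium for protons, and SLC26A3 (DRA) takes up chloride for bicarbonate. In distal colon, sodium also enters through ENaC, a channel of 3 different subunits that aldosterone controls, and ATP12A, the colonic H+/K+-ATPase, reclaims potassium. Secretion runs the other way: SLC12A2 (NKCC1) loads chloride into the cell from the blood side, CFTR and other channels let it out, and the potassium channel KCNN4 keeps the cell negative while it leaves. BEST2 is an anion channel that passes chloride and bicarbonate and is found in colonic goblet cells.

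Libraries held 32231389 to 74661887 reads assigned to genes (median 46659625) in the 38 libraries of the tables where reads were recovered, so replicate spread and not counting limits most values. Epithelial markers were high in all crypts. In the bulk samples, fewer cells of a type and less RNA per cell cannot be told apart. The targeted gene, *Cbfa2t3* by its official symbol, had 694, 1095, 424 and 688 normalized counts in distal *Mtg16*-/- crypts against 1027 to 1809 in WT, and higher counts in T/T than in WT distal crypts (1509 to 2196 against 937 to 1040). The library labelled distal *Mtg16*-/- replicate 2 went against its segment label. *Hoxd13*, a homeobox gene of the hind end of the body, was listed at 0 there and at 3576 to 6654 in the other 7 libraries of its table, and *Abca12*, which was near 0 in distal WT, was at 9746. The distal *Mtg16*-/- fold changes are therefore given with and without this library. In several libraries the levels ran with transcript length, down or up, and those of the *Mtg16*-/- colony after DSS are given further on. The slope of a library's log2 level with transcript length, relative to its table, was -0.208 log2 per doubling of length in distal T/T replicate 1, and after DSS in the T/T colony -0.149, -0.256 and 0.170 in WT replicates 1 to 3 and 0.095, 0.360 and -0.220 in T/T replicates 1 to 3. The 2 members with the longest transcripts, *Slc12a2* (6520 bases) and *Cftr* (6410 bases), are given with these slopes in view.

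In WT crypts the members differed in level by over 3 orders of magnitude and several were marked by segment. As reads scaled to library size (CPM) per kilobase of the longest transcript, *Slc26a3* was the highest in proximal colon at 131 ± 27.1 (SD, n = 4), above *Slc12a2* at 66.1 ± 1.76 and *Slc9a3* at 62.3 ± 21.2, whose library ranges overlapped. The lowest *Slc9a3* library lay within the range of *Cftr*. *Cftr* (32.4 ± 1.74), *Scnn1a* (19.0 ± 1.44), *Kcnn4* (15.2 ± 0.969), *Scnn1b* (5.13 ± 0.625) and *Best2* (1.89 ± 0.881) followed, with no overlap between neighbours from *Cftr* on. *Atp12a* (0.279 ± 0.352) and *Scnn1g* (0.128 ± 0.141) were the lowest and overlapped each other. In distal colon *Slc26a3* (291 ± 60.4, n = 7) and *Atp12a* (228 ± 47.6) were the highest and overlapped, and *Scnn1b* (2.84 ± 1.21) and *Scnn1g* (2.20 ± 1.56) the lowest, again overlapping.

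To see which members set the segments apart, 4 proximal WT libraries were compared with 7 distal ones of both colonies. The distal libraries were higher in *Slc26a3*, *Scnn1a*, *Scnn1g*, *Atp12a*, *Best2* and *Kcnn4* and lower in *Scnn1b* and *Cftr*, and *Slc9a3* and *Slc12a2* did not pass the test. These 8 called members of 10 stand beside 42.1% of all genes tested, of which 2785 were higher and 3039 lower. In 5 members the libraries of the segments did not overlap, as in 30.0% of all genes. The first number of the library name (4149 and 5582 for proximal, 4149 and 5094 for distal libraries) differed with segment. With that number as a covariate 4 members were called (*Scnn1a*, *Scnn1g*, *Atp12a*, *Best2*), and within 4149, with 2 libraries per segment, 3 were (*Scnn1a*, *Atp12a*, *Best2*). The 42.1% belongs to the main fit, and the shares of all genes in these other fits are not given.

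*Atp12a* had the greatest difference of the members. Its normalized counts were 9, 1.0, 53 and 139 in proximal crypts, and the lowest, median and highest of the distal libraries were 30918, 37123 and 55684. The log2 fold change from proximal to distal was 10.98 (standard error 0.822, adjusted p = 1.4e-07), and the alternatives, which all kept the call, gave 8.78 to 13.17. The proximal libraries of the 2 colonies also differed from each other, with 9 and 1.0 in the *Mtg16*-/- colony and 53 and 139 in the T/T colony. *Hoxb13*, a position gene like *Hoxd13*, ranged from 12.6 to 259 in these 4 libraries and from 16898 to 19501 in distal crypts. *Best2* had 147, 301, 89 and 230 normalized counts in proximal crypts and 1697 to 4299 (median 2662) in distal crypts, a log2 fold change of 3.95 (SE 0.295, adjusted p = 1.4e-07). Goblet cell markers, 6 of 7 listed, had a mean log2 level of 15.40 to 15.77 in proximal and 15.76 to 16.60 in distal crypts, which overlap, and their sums did not (332231 to 419592 and 526041 to 978090 normalized counts). Surface colonocyte markers, 7 of 7 listed, were lower in distal crypts (11.46 to 12.67 against 14.02 to 14.40). The part of either list in the members' differences was not tested.

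The 3 ENaC genes did not move together along the colon. *Scnn1a*, the pore-forming alpha subunit, had 3045, 3167, 2756 and 3168 normalized counts in proximal crypts and 6714 to 9122 (median 7342) in distal crypts, a log2 fold change of 1.34 (SE 0.0920, adjusted p = 6.0e-08). *Scnn1g*, the gamma subunit, had 3, 48, 12 and 9 in proximal crypts and 60 to 709 (median 232) in distal crypts, a log2 fold change of 4.18 (SE 0.670, adjusted p = 0.000194). *Scnn1b*, the beta subunit, went the other way. It had 628, 695, 523 and 580 in proximal crypts and 162 to 628 (median 293) in distal crypts, and 1 distal library, WT replicate 4 of the *Mtg16*-/- colony, lay within the proximal range. The log2 fold change was -0.99 (SE 0.271, adjusted p = 0.00962), and it was -0.39 (adjusted p = 0.389) with the first number of the library name as a covariate. *Scnn1g* and *Scnn1b* are neighbours on chromosome 7, on the same strand, with 96.6 kb between the end of the first and the start of the second. Their promoters (250 bases before to 50 after the start, RefSeq sequences on GRCm38.p6, plus strand) are shown because these neighbours differed between segments in opposite directions. Capitals mark E boxes (CANNTG on either strand), the sites that E proteins can bind.
Scnn1g, chr7:121734229-121734528: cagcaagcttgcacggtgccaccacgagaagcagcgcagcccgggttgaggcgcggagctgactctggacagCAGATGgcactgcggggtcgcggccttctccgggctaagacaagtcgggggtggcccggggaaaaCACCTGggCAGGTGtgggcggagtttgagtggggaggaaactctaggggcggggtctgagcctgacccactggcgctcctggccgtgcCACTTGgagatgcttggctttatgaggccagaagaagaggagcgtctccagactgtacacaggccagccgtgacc
Scnn1b, chr7:121864788-121865087: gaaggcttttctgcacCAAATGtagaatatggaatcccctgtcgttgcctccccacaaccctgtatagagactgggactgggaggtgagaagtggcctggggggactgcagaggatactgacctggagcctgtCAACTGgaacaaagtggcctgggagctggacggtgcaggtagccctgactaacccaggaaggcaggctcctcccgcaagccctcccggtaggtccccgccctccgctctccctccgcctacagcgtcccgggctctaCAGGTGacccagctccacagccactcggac
The *Scnn1g* window held 4 E boxes and the *Scnn1b* window 3. Of 27025 promoters of the same length 72.1% held at least 1, so this is a common motif. The letters AGAACA, one arm of the element that mineralocorticoid and glucocorticoid receptors can bind, were in neither window and in 19.0% of promoters on either strand. The letters TTTATG, found in 12.1% of promoters, were in the *Scnn1g* window once and not in that of *Scnn1b*. Promoters were at hand for 6 of the 10 members.

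*Slc26a3* was the exchanger that differed by segment. It had 17502, 28117, 18449 and 19367 normalized counts in proximal crypts and 27673 to 54511 (median 48817) in distal crypts, with 1 distal library inside the proximal range. The log2 fold change was 1.09 (SE 0.188, adjusted p = 0.000348). Its partner *Slc9a3* ranged from 7560 to 19030 in proximal and from 4645 to 23847 in distal crypts, the distal range enclosing the proximal one (log2 fold change -0.36, 95% interval -1.18 to 0.46, adjusted p = 0.479). Among the secretory genes, *Cftr* had 8893, 9328, 9524 and 10170 in proximal crypts and 6005 to 8502 (median 6792) in distal crypts, without overlap (log2 fold change -0.46, SE 0.0859, adjusted p = 0.000705). *Kcnn4* differed little, with 2336 to 2824 in proximal and 2678 to 3247 in distal crypts (log2 fold change 0.26, SE 0.0694, adjusted p = 0.00892). *Slc12a2* had the tightest values, 18769 to 20482 in proximal and 19905 to 23298 in distal crypts (log2 fold change 0.11, 95% interval -0.03 to 0.24, adjusted p = 0.186).

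**Figure D1:**
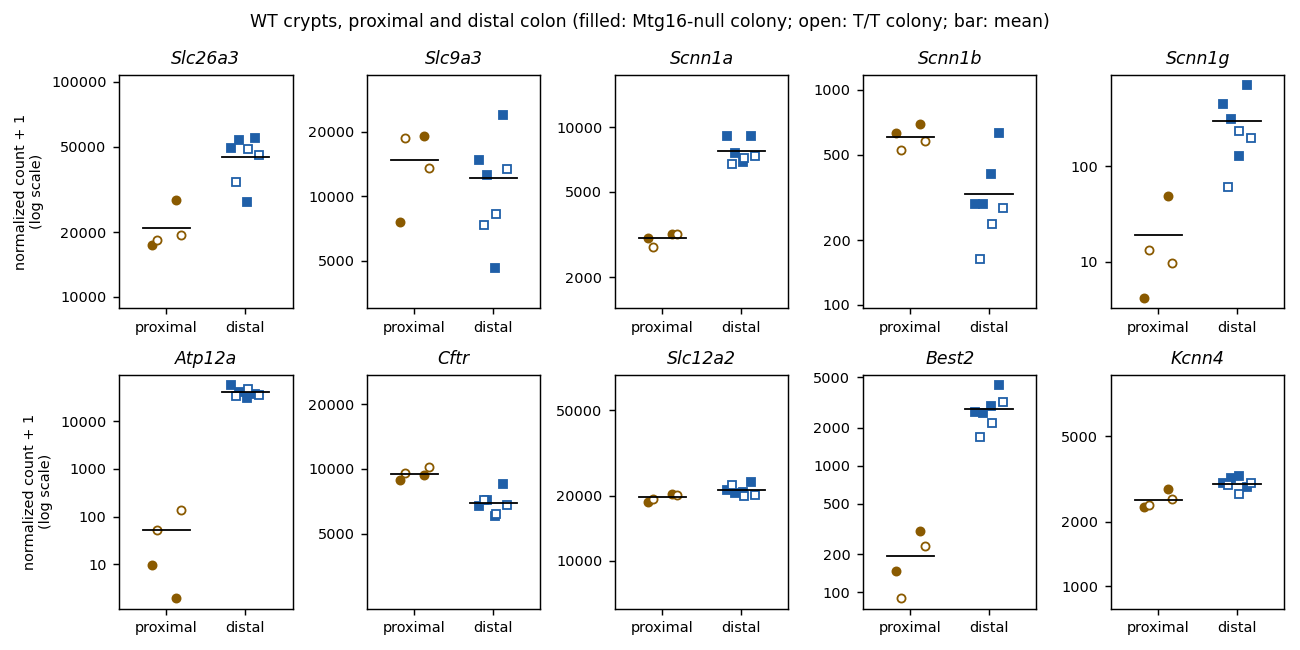
Normalized count plus 1 (log scale) of each member in WT proximal (4) and distal (7) crypt libraries, filled for the *Mtg16*-/- colony and open for the T/T colony, with the mean as a bar. *Atp12a*, *Best2*, *Scnn1g* and *Scnn1a* lie higher in every distal library, and *Slc12a2* lies between 18769 and 23298 throughout.

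Of 30 other genes of the same transport system, 29 were tested between segments, and 8 were higher and 7 lower in distal colon, beside 42.1% of all genes called. *Fxyd4*, a small regulator of the sodium pump known from distal colon, was listed at 0 in 3 of the 4 proximal libraries and at 0.969 in the other, against 176 to 407 in distal ones, so it passed the minimum through the distal group and had to be among the 8. *Ano1*, a calcium-activated chloride channel, had 1437 to 1800 against 11645 to 16729 (log2 fold change 3.19, adjusted p = 6.8e-11), and *Tsc22d3*, a corticosteroid-induced gene, 905 to 1165 against 1544 to 2050 (0.80, adjusted p = 2.3e-05). Lower in distal colon with the greatest differences were *Slc9a3r2* (-1.08, adjusted p = 0.000179), a scaffold protein that binds NHE3, the anion exchanger *Slc4a2* (-0.95, adjusted p = 4.1e-06) and the sodium-proton exchanger *Slc9a2* (-0.62, adjusted p = 0.0123).

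After DSS, WT distal crypts of the T/T colony (3 libraries against 3 at baseline) had more RNA of the 3 ENaC subunits, *Best2* and *Kcnn4* and less of *Slc26a3*, *Cftr* and *Slc12a2*. *Slc9a3* and *Atp12a* did not pass the test. The 8 called members of 10, 5 higher and 3 lower, stand beside 35.6% of all genes tested (1897 higher, 2936 lower), and the 8 members without overlap between the groups beside 55.3%. All baseline libraries have names that start with 5094 and all DSS libraries names that start with 5740, so that number and DSS cannot be told apart. The calls also depended on single libraries. Without baseline replicate 2 none was left (the adjusted p of *Scnn1b* was then 0.0534), without baseline replicate 1 or 3 there were 4, without DSS replicate 1 there were 3, without DSS replicate 2 there were 5, and without DSS replicate 3 there were 10, while the direction of each called member was kept in all of these. With the level of *Xist* as a covariate none was called. *Hoxd13* was lower after DSS without overlap (1697 to 3657 against 3864 to 4366) and *Hoxb13* higher (20558 to 24400 against 18150 to 19303), and their part in the results was not tested. *Xist* was at 0 to 0.816 in the DSS libraries and at 0 to 30640 at baseline. Epithelial and surface colonocyte markers, 7 of 7 listed in each, were higher after DSS without overlap (mean log2 level of 16.14 to 16.29 and then 16.39 to 16.77, and 11.58 to 12.27 and then 12.34 to 12.59), and their part in the results was not tested. edgeR on the recovered reads called 7 members and DESeq2 called 8. The 35.6% belongs to the main fit, and the share of all genes called in each other fit is not given.

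*Scnn1b* rose from 177, 255 and 299 normalized counts at baseline to 969, 825 and 1142 after DSS. The log2 fold change was 2.02 (SE 0.240, adjusted p = 0.00803). *Scnn1g* rose from 65, 250 and 209 to 889, 659 and 1083 (2.50, SE 0.512, adjusted p = 0.0168). *Scnn1a* rose from 7325, 7724 and 7822 to 14565, 14027 and 12253 (0.83, SE 0.107, adjusted p = 0.00814). For each subunit the 3 DSS libraries lay above all 3 baseline libraries, with the smaller relative change in the subunit that was most abundant at baseline. With the trend of each library with transcript length removed, the 3 fold changes were 2.16, 2.71 and 1.13.

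*Best2* rose from 1852, 2324 and 3371 to 8179, 6522 and 7431 (1.59, SE 0.228, adjusted p = 0.00916). Goblet cell markers rose with it, with a mean log2 level of 15.9 to 16.1 at baseline and 16.7 to 16.8 after DSS over the 6 of 7 listed, and their part in the result was not tested. *Kcnn4* rose from 3224, 2877 and 3232 to 4864, 5324 and 3940 (0.59, SE 0.143, adjusted p = 0.0246). *Atp12a*, in contrast, had 36801, 50335 and 37028 at baseline and 26682, 27496 and 58540 after DSS, so that its DSS libraries lay on both sides of the baseline range (-0.23, 95% interval -0.99 to 0.54).

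The absorptive exchanger *Slc26a3* fell from 37380, 52432 and 48528 to 10394, 9137 and 27057 (-1.74, SE 0.409, adjusted p = 0.0231). *Cftr* fell from 7840, 6592 and 7237 to 1428, 1190 and 3761 (-1.96, SE 0.414, adjusted p = 0.0183). *Slc12a2* fell from 24568, 21379 and 21420 to 4690, 3115 and 15134 (-1.89, SE 0.540, adjusted p = 0.0369), and edgeR did not call it (-1.51, adjusted p = 0.0776). In all 3 genes DSS replicates 1 and 2 were much lower than replicate 3, and in this table the length slopes of these libraries were -0.251, -0.359 and 0.072 against 0.162 to 0.2 at baseline. With the length trend removed the falls were smaller, at -1.45 for *Slc26a3* (adjusted p = 0.0117), -1.23 for *Cftr* (adjusted p = 0.00704) and -1.15 for *Slc12a2* (adjusted p = 0.0266), and *Slc9a3* was then called higher (1.16, adjusted p = 0.0222, against 0.58, adjusted p = 0.101, without that step). Markers of dividing cells were lower after DSS as well (a median over libraries of 10.67 against 12.22 in mean log2 level), and their part in the falls was not tested.

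**Figure D2:**
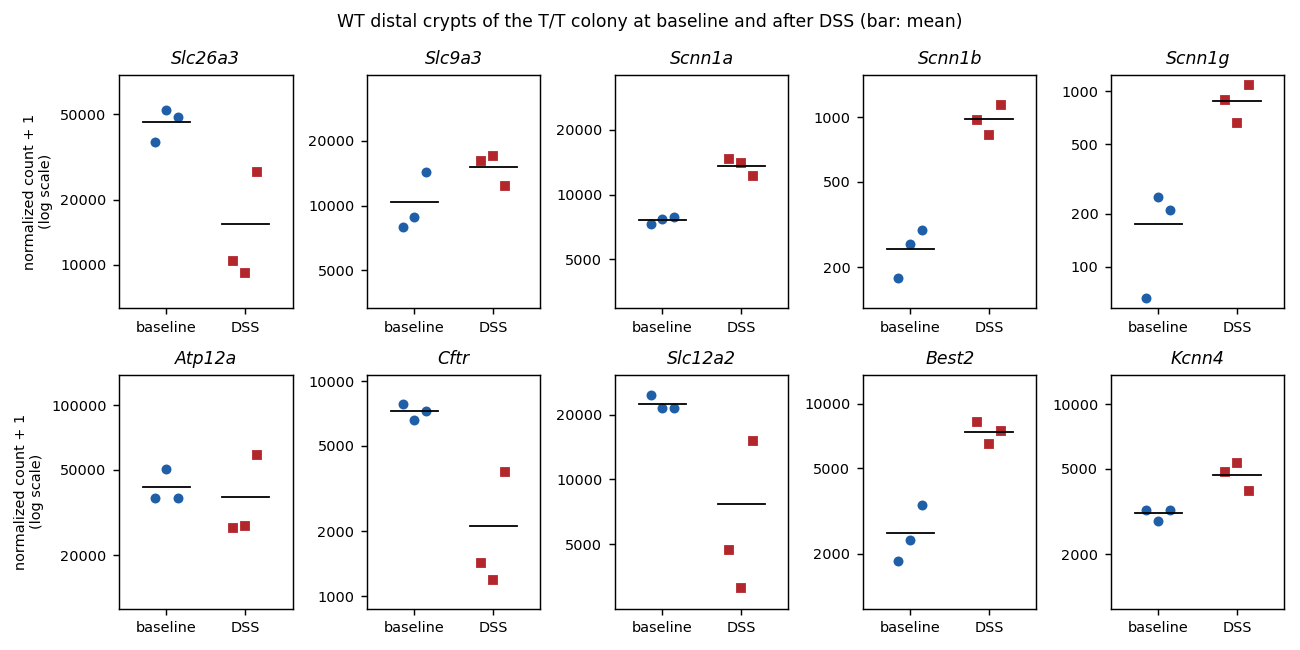
Normalized count plus 1 (log scale) of each member in WT distal crypts of the T/T colony, 3 libraries at baseline and 3 after DSS, with the mean as a bar. The DSS libraries lie above all baseline libraries in *Scnn1a*, *Scnn1b*, *Scnn1g*, *Best2* and *Kcnn4* and below them in *Slc26a3*, *Cftr* and *Slc12a2*.

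Of the pathway list, 13 of 29 genes tested were higher in the same comparison. Of all 13566 genes tested, 1897 were called higher there, and 35.6% were called in either direction. Of 7 ENaC regulators 5 were higher. *Sgk1*, the aldosterone-induced kinase that keeps ENaC at the membrane, rose from 2056, 1841 and 968 to 3521, 3937 and 6735 (1.56, adjusted p = 0.0222). *Hsd11b2*, the enzyme that shields the mineralocorticoid receptor from glucocorticoids, rose from 11242, 13340 and 16491 to 41052, 34122 and 32625 (1.4, adjusted p = 0.00803). *Slc9a3r2* rose as well (1.25, adjusted p = 0.0103).

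The WT littermates of the *Mtg16*-/- colony offer a second view, without a table of their own for DSS against baseline. Their levels are set side by side here as CPM, across tables that were scaled separately, and without a test. *Slc26a3* had 637 to 1220 CPM in their 4 baseline libraries and 171 to 695 in their 3 DSS libraries. *Scnn1b* had 6.48 to 13.4 at baseline and 9.61 to 17.7 after DSS, whereas the T/T colony's WT went from 3.84 to 6.28 at baseline to 16.7 to 24.1. *Scnn1g* had 2.92 to 15.1 at baseline and 6.67 to 7.52 after DSS, within its baseline range, and *Scnn1a* 158 to 201 and 157 to 176. So the higher ENaC values after DSS seen in one colony's WT were not seen in the other for *Scnn1a* and *Scnn1g*. *Slc12a2* had 465.5 to 497.5 CPM at baseline and 421 to 643 after DSS in the *Mtg16*-/- colony's WT, against 450 to 533 and 63.0 to 319 in the T/T colony's WT. *Best2* had 58.8 to 91.8 and 61.8 to 175, and *Atp12a* 712 to 1230 and 306 to 690. *Cftr* had 138 to 182 and 79.4 to 165, which overlap, against 140 to 170 and 24.0 to 79.2 in the T/T colony's WT. *Kcnn4* had 62.1 to 74.8 and 65.4 to 107, which overlap, against 61.2 to 69.9 and 83.0 to 108. The difference between the colonies' DSS responses was not tested, and the DSS libraries of the 2 colonies also differ in the first number of their names (6217 and 5740).

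**Figure D3:**
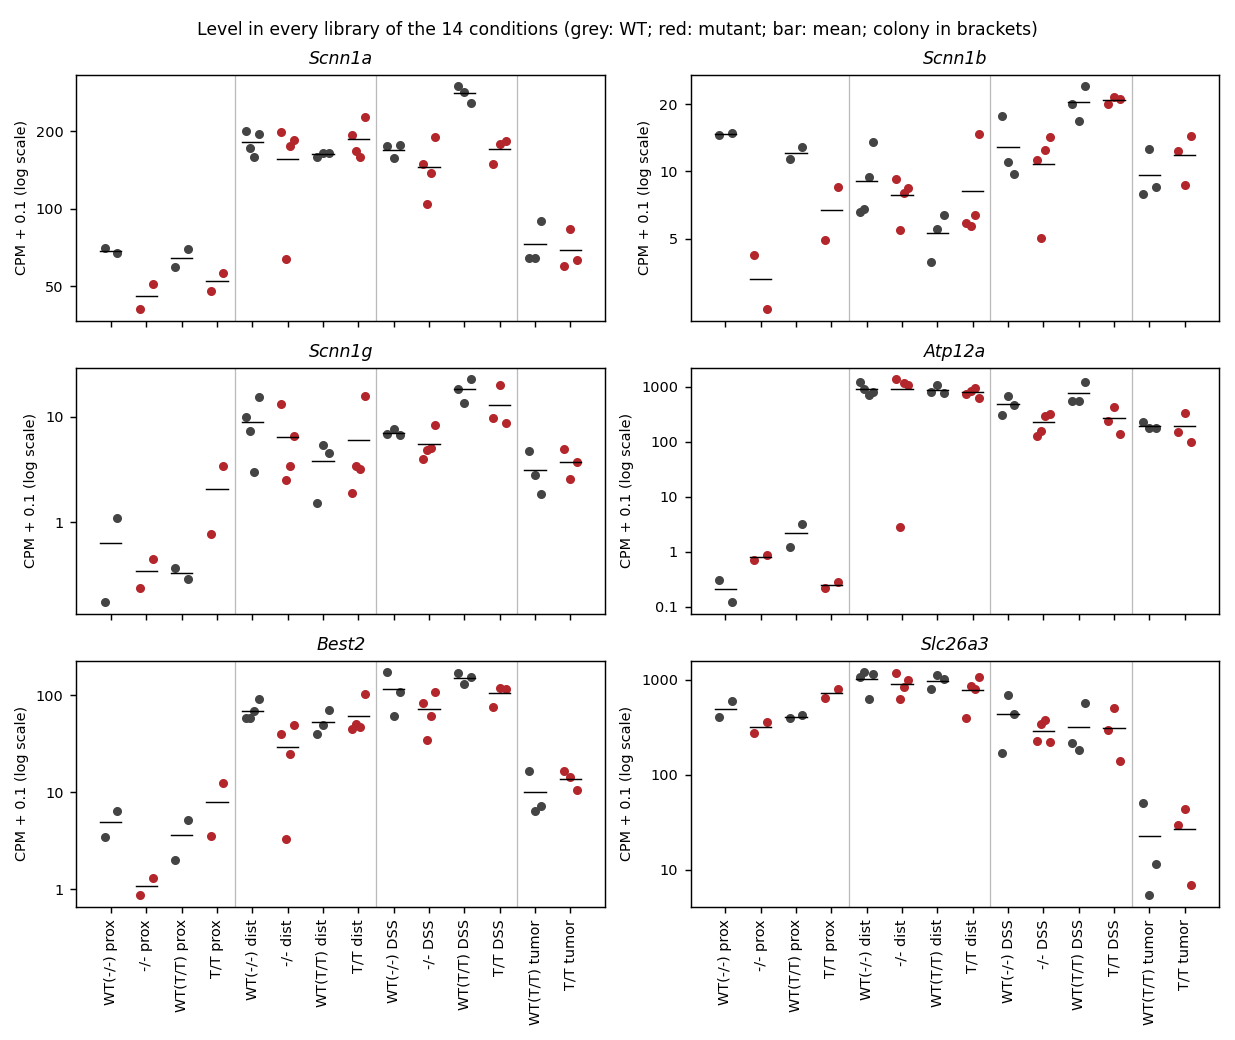
CPM plus 0.1 (log scale) of 6 members in every library of the 14 conditions, WT in grey and mutants in red, with the mean as a bar and the colony in brackets. *Atp12a* lies below 4 CPM in all proximal libraries and in 1 library labelled distal *Mtg16*-/-, and *Slc26a3* is lowest in the tumors.

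Genotype had fewer detectable effects. In proximal crypts, 2 *Mtg16*-/- libraries were compared with 2 of WT littermates. None of the 10 members was called (limma), nor was more than 0.0645% of all genes. An unadjusted p under 0.05 was found for 5 members, beside 831 of all 13944 genes tested. For 6 members the libraries of the genotypes did not overlap, beside 35.6% of all genes. Both counts include *Atp12a*, whose WT mean lies under the minimum, and 2 against 2 is too few for an exact test to reach 0.05. *Scnn1b* had 677 and 741 normalized counts in WT and 199 and 115 in *Mtg16*-/- (log2 fold change -2.22, SE 0.289, adjusted p = 0.104). With the replicate number as a block its adjusted p was 0.0312, although the numbers were not found to pair these libraries. The share of all genes called with that block is not given. *Best2* had 158 and 321 in WT and 37 and 60 in *Mtg16*-/- (-2.24, SE 0.438, adjusted p = 0.293), and 4 marker lists were higher in *Mtg16*-/- without overlap. Their mean log2 levels were 16.04 to 16.07 against 15.73 to 15.88 for goblet, 10.58 to 11.13 against 9.90 to 10.20 for enteroendocrine, 5.87 to 6.91 against 5.51 to 5.63 for myeloid and 8.86 to 9.04 against 7.70 to 8.54 for plasma cells, and their part in the results was not tested. *Slc26a3* had 18874 and 29980 in WT and 13427 and 17825 in *Mtg16*-/- (-0.62, SE 0.242, adjusted p = 0.797). *Scnn1a* had 3284 and 3377 in WT and 1959 and 2524 in *Mtg16*-/- (-0.58, SE 0.147, adjusted p = 0.496). *Atp12a*, near its floor in proximal colon, had 9 and 1.0 in WT and 30 and 38 in *Mtg16*-/-.

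In proximal T/T crypts, 2 libraries against 2, none of the members was called either (0.232% of all genes were). There were 5 members at an unadjusted p under 0.05, beside 1652 of all 13767 genes tested. The groups lay apart in 6 members, beside 45.5% of all genes. *Atp12a* is 1 of each although its T/T mean lies under the minimum. *Slc26a3* had 17934 and 18630 in WT and 28419 and 36326 in T/T (0.81, SE 0.126, adjusted p = 0.0958). With the replicate number as a block its adjusted p was 0.0301, although here too the numbers were not found to pair the libraries. Surface colonocyte markers were higher in T/T as well (mean log2 level of 14.26 to 14.47 against 14.14 to 14.23), as were enteroendocrine markers (10.41 to 10.64 against 9.63 to 9.92). Epithelial markers were lower by a small margin (15.916 to 15.981 against 15.983 to 15.991). The part of these lists in the result was not tested. *Atp12a* had 51 and 134 in WT and 5 and 8 in T/T, and since its T/T mean lies under the minimum for a test, only these values are given. *Hoxb13* had 27.1 and 249 in WT and 0 to 11.1 in T/T beside it, and its part was not tested. *Scnn1b* had 509 and 558 in WT and 214 and 380 in T/T (-0.90, SE 0.270, adjusted p = 0.297), and *Scnn1a* had 2679 and 3047 in WT and 2117 and 2529 in T/T (-0.30, SE 0.121, adjusted p = 0.403). *Scnn1g* lay the other way, with 12 and 8 in WT and 30 and 148 in T/T (2.61, SE 0.756, adjusted p = 0.286). *Scnn1a* and *Scnn1b* thus lay lower in the mutant than in the WT libraries of both colonies, without passing the test in either. *Slc26a3* and *Atp12a* also lay apart in both colonies, but in opposite directions. The share of all genes that lay apart in the same direction in both is not given.

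In distal crypts, 4 *Mtg16*-/- libraries were compared with 4 of WT, and no member was called by limma, edgeR or DESeq2 (all genes called: 0.239%). An unadjusted p under 0.05 was found for 641 of all 13831 genes tested and for 1 member. That member was *Best2*, with 2726, 2668, 3043 and 4398 in WT and 1818, 145, 1096 and 2280 in *Mtg16*-/-. The groups did not overlap, beside 3.75% of all genes, and the exact permutation p was 0.0286, the smallest that 4 against 4 allows. The log2 fold change was -1.80 (SE 0.768, adjusted p = 0.9998). Without the library labelled replicate 2 it was -0.92 (SE 0.256, adjusted p = 0.249), where 1.04% of all genes were called and 6.52% did not overlap. *Atp12a* depended on that library most. It had 57014, 42442, 31783 and 37977 in WT and 64450, 127, 52255 and 50505 in *Mtg16*-/-, a log2 fold change of -1.77 with that library and 0.42 without it (SE 0.189, adjusted p = 0.862). *Scnn1a* likewise had 2884 in that library and 7697 to 9057 in the other 3, against 7054 to 9332 in WT, and its log2 fold change was -0.37 with it and 0.02 without it. *Slc12a2* (0.03 with and -0.01 without it), *Kcnn4* (0.03 and 0.04) and *Cftr* (0.00 and -0.13) had small fold changes. The others were *Slc26a3* (-0.19 with and -0.02 without it), *Slc9a3* (0.18 and -0.17), *Scnn1b* (-0.21 and -0.04) and *Scnn1g* (-0.58 and -0.22). Enteroendocrine markers were higher in *Mtg16*-/- without overlap (mean log2 level of 11.06 to 11.505 against 9.74 to 9.87), and their part in the values was not tested.

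In distal T/T crypts, 4 libraries against 3 of WT, no member was called by limma, edgeR or DESeq2 (0.0369% of all genes were), none had an unadjusted p under 0.05, and none of the groups lay apart, beside 7.70% of all genes. Replicate 4 of T/T stood above the other 3 in *Scnn1b* (606 against 219 to 251), *Scnn1g* (648 against 69 to 131) and *Best2* (4304 against 1720 to 2012). WT had 152 to 259, 56 to 217 and 1594 to 2918 of the same genes. *Cftr* had 6748, 5744 and 6263 in WT and 2191, 5460, 6153 and 4983 in T/T (-0.51, 95% interval -1.30 to 0.28), and *Slc12a2* 21146, 18631 and 18539 in WT and 7514, 18058, 21082 and 17104 in T/T (-0.38, 95% interval -1.16 to 0.40). The lowest value of both is in T/T replicate 1, the library with the slope of -0.208. Enteroendocrine markers were higher in T/T here too (10.06 to 10.56 against 9.59 to 9.90).

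After DSS, 4 *Mtg16*-/- libraries were compared with 3 of WT. No member was called by limma, edgeR or DESeq2 without pairing, beside 0.629% of all genes. There was 1 member at an unadjusted p under 0.05, beside 1796 of all 14476 genes tested. None of the groups lay apart, beside 11.4% of all genes. Libraries with the same replicate number deviated together in this comparison alone. With the number as a block, which drops *Mtg16*-/- replicate 4, *Atp12a* (-1.35, adjusted p = 0.0133) and *Best2* (-0.92, adjusted p = 0.00168) were lower in *Mtg16*-/-. The 0.629% belongs to the fit without the block, and the share of all genes called with it is not given. Pairing was adopted because these same libraries deviated together. *Atp12a* had 17483, 38431 and 24907 in WT and 7263, 8246, 16918 and 18349 in *Mtg16*-/- (without the block -1.13, SE 0.377, adjusted p = 0.228, exact permutation p = 0.0571). *Best2* had 10011, 3444 and 5852 in WT and 4730, 1841, 3431 and 6258 in *Mtg16*-/- (without the block -0.67, SE 0.438, adjusted p = 0.617). In each pair of the same number, replicates 1, 2 and 3, the *Mtg16*-/- library was lower in both genes, as it was in *Scnn1a* (blocked -0.41, adjusted p = 0.0625) and *Scnn1g* (blocked -0.63, adjusted p = 0.0543), which did not pass. The length slopes ran with the number too, at -0.096, 0.171 and 0.108 in WT and -0.187, 0.094 and -0.002 in *Mtg16*-/- replicates 1 to 3. Genes of position differed beside them, with *Hoxd13* at 815 to 2864 in *Mtg16*-/- and 3321 to 3787 in WT and *Abca12* at 175 to 440 and 76 to 111, and myeloid markers were higher (mean log2 level of 10.03 to 11.48 against 8.11 to 9.75), as were those of enteroendocrine cells (10.66 to 10.91 against 9.76 to 10.24) and of ileal epithelium and Paneth cells (7.05 to 7.56 against 6.94 to 6.99). Their part in the results was not tested. Of the pathway list *Sgk1* alone was called, with 3935, 4295, 4383 and 5001 in *Mtg16*-/- and 2121, 2323 and 2162 in WT (1.00, adjusted p = 0.0155).

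In the T/T colony after DSS, 3 libraries against 3, limma called 0% of all genes and none of the members. An unadjusted p under 0.05 was found for 1197 of all 13648 genes tested and for 3 members. These were also the 3 without overlap, beside 13.7% of all genes, and 3 against 3 cannot give an exact p below 0.1. *Scnn1a* had 15833, 15124 and 12938 in WT and 6994, 8785 and 9445 in T/T (-0.81, SE 0.177, adjusted p = 0.242), and DESeq2 called it (-0.79, adjusted p = 0.0284). *Atp12a* had 29004, 29648 and 61809 in WT and 11246, 21416 and 7282 in T/T (-1.64, SE 0.463, adjusted p = 0.352). *Best2* had 8891, 7033 and 7846 in WT and 3577, 5942 and 6032 in T/T (-0.65, SE 0.245, adjusted p = 0.518). Beside these, *Hoxb13* was at 9518 to 19012 in T/T and 21706 to 26309 in WT, and *Hoxd13* at 894 to 2416 and 1845 to 3861. Goblet cell markers were lower in T/T (mean log2 level of 16.12 to 16.30 against 16.85 to 16.89). Markers of dividing (11.30 to 11.68 against 10.42 to 11.08), myeloid (8.41 to 9.13 against 6.53 to 7.97), plasma (7.96 to 8.57 against 7.63 to 7.67) and enteroendocrine cells (10.48 to 10.76 against 9.84 to 10.34) were higher, and the part of these lists in the results was not tested. *Scnn1b* had 1054, 889 and 1206 in WT and 929, 1060 and 1076 in T/T (-0.03, 95% interval -0.50 to 0.44).

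*Slc12a2*, *Cftr* and *Slc26a3* spread widely in both genotypes after DSS in this colony. *Slc12a2* had 5098, 3359 and 15980 in WT and 12169, 33282 and 4922 in T/T (0.95, 95% interval -0.99 to 2.9). *Cftr* had 1553, 1283 and 3971 in WT and 3833, 8916 and 2144 in T/T (1.07, 95% interval -0.41 to 2.55). *Slc26a3* had 11298, 9851 and 28568 in WT and 13875, 25015 and 7115 in T/T (-0.12, 95% interval -1.47 to 1.22). Across the 6 libraries *Slc12a2* was at 3359 at the lowest length slope and at 33282 at the highest, and *Slc26a3*, with a transcript of 3462 bases, was also low in the 3 libraries of negative slope. *Slc9a3*, with a transcript of 5118 bases, did not run with the slope (18306 at the lowest and 16379 at the highest), and *Scnn1b*, of 2591 bases, stayed between 889 and 1206. The part of transcript length in these values was not tested. With the length trend removed the fold changes were 0.64 for *Slc12a2* and 0.76 for *Cftr*.

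**Figure D4:**
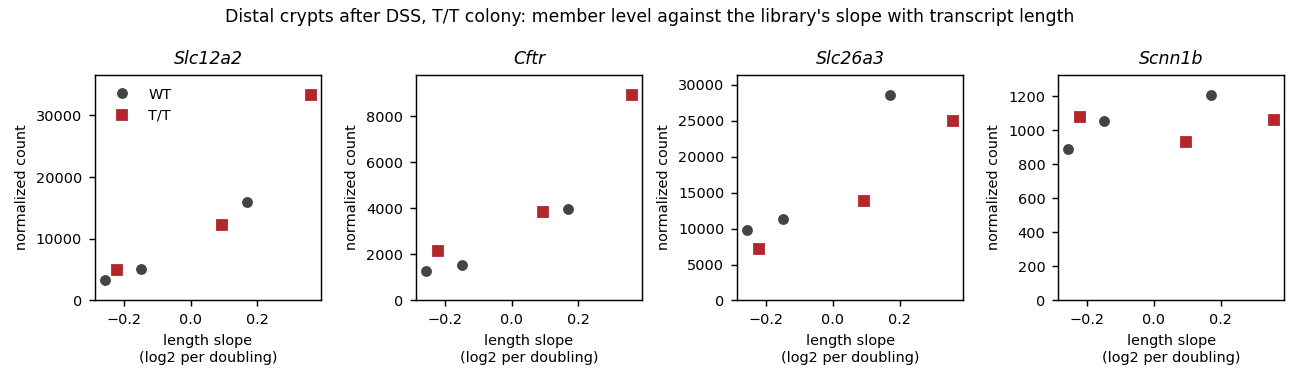
Normalized count of 4 members against the slope of each library's log2 level with transcript length (log2 per doubling of length) in 6 distal crypt libraries of the T/T colony after DSS, WT as circles and T/T as squares. *Slc12a2* and *Cftr* are highest in T/T replicate 2, which has the slope of 0.360, and *Scnn1b* varies little.

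In tumors of the T/T colony, 3 of T/T against 3 of WT, no member was called by limma, edgeR or DESeq2 (0% of all genes by limma), none had an unadjusted p under 0.05, and none of the groups lay apart, beside 5.52% of all genes. *Slc26a3* had 2434, 251 and 567 in WT and 1436, 2116 and 323 in T/T (0.50, 95% interval -1.63 to 2.63), a spread of nearly an order of magnitude within a genotype. *Slc12a2* had 31448, 27920 and 23828 in WT and 39278, 27854 and 34669 in T/T (0.29, 95% interval -0.09 to 0.66). *Atp12a* had 11194, 8464 and 8813 in WT and 7360, 16608 and 4745 in T/T. Side by side as CPM, the WT tumors and the WT distal crypts of the same colony at baseline differed in kind by gene. *Slc26a3* had 5.23 to 50.1 CPM in tumors and 811 to 1115 in crypts, *Best2* 6.34 to 16.4 and 40.2 to 70.8, *Cftr* 29.8 to 58.6 and 140 to 170, and *Scnn1a* 64.0 to 89.5 and 159 to 164. *Slc12a2* had 476 to 648 and 450 to 533, and *Kcnn4* 54.9 to 82.2 and 61.2 to 69.9. *Atp12a* had 176 to 231 and 778 to 1071, and *Scnn1b* 7.79 to 12.5 and 3.84 to 6.28. WT distal crypts of the *Mtg16*-/- colony had 6.48 to 13.4 CPM of *Scnn1b*, a range that encloses that of the WT tumors. Names of the tumor libraries start with 5698 and those of these T/T colony crypts with 5094, so that number and tissue cannot be told apart. Tumors were taken whole and crypts were not. Stromal markers had a mean log2 level of 13.7 to 14.1 in WT tumors and 4.12 to 5.16 in WT crypts of the T/T colony, each in its own table, and no test was made across tables.

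Whether the mutant effects differed between colonies, segments or treatments was tested for each member from the fold changes of 2 tables. Without the replicate block, in none of 6 such tests was a member called. All genes were called at 0% between distal *Mtg16*-/- and distal T/T, 0.0148% between *Mtg16*-/- and T/T after DSS, 0.0372% and 0.0229% between proximal and distal colon for *Mtg16*-/- and T/T, and 0.00738% and 0.234% between DSS and baseline. The lowest adjusted p-values of members above the minimum in both groups were those of *Scnn1b* between proximal and distal *Mtg16*-/- (-2.22 and -0.21, a difference of -2.01, SE 0.399, adjusted p = 0.181, and -2.18 with adjusted p = 0.0577 without distal *Mtg16*-/- replicate 2) and of *Scnn1a* between DSS and baseline. *Scnn1a* had a T/T effect of -0.81 after DSS and 0.15 at baseline, a difference of -0.96 (SE 0.223, adjusted p = 0.113). Without that library no member was called in the 3 tests that use it, and *Atp12a* between DSS and baseline in *Mtg16*-/- moved from 0.64 to -1.55 (adjusted p = 0.163). With the blocked effects after DSS, no member was called in the 2 tests that use them. With both the block and that library left out, 2 choices made after the data were seen, *Atp12a* was called (-1.35 after DSS and 0.42 at baseline, a difference of -1.77, SE 0.315, adjusted p = 0.00591).

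**Figure D5:**
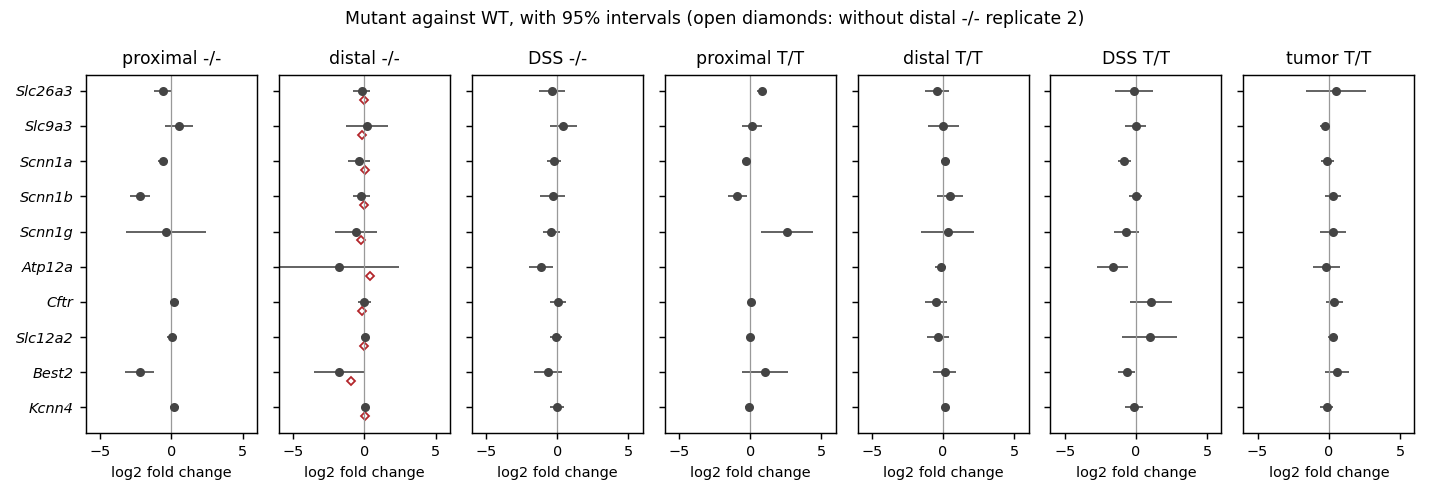
Log2 fold change of mutant against WT for each member in 7 comparisons, with 95% intervals from limma, and open diamonds for distal *Mtg16*-/- without the library labelled replicate 2. *Atp12a* is left out of both proximal panels, where 1 group lies under the minimum. *Scnn1b* and *Best2* in proximal *Mtg16*-/- are at -2.22 and -2.24, and *Atp12a* in distal *Mtg16*-/- moves from -1.77 to 0.42.

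The genes whose fold changes over the 9 comparisons lay nearest to those of a member were found among 12802 genes tested in all of them, by the root mean square distance on the log2 scale. For *Slc12a2* they were *Tubgcp5* (0.0874), *Parg* (0.0882) and *Ppp1r12a* (0.0944). For *Slc26a3* they were *Pik3r3* (0.249), *Rnf152* (0.317) and *Gm26685* (0.341), and for *Scnn1b* *Snx22* (0.427), *Ccn3* (0.447) and *Scarf2* (0.530). *Atp12a* had no near neighbour, the closest being *Tgm3* (0.913), *Hoxb13* (1.24) and *Ly6g* (1.66). The comparisons share libraries and include the library labelled distal *Mtg16*-/- replicate 2, so these distances are a description.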

How the data were processed

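RNA of colon crypts and tumors was sequenced. Per the study's methods and the labels, the authors trimmed reads with fastp 0.20.0, quantified them with Salmon 1.3.0 on a GENCODE mouse transcriptome (mm10) and used DESeq2 1.26.0 in R 3.6.3. The deposited signal values used here are normalized counts, Salmon's estimates as whole reads divided by 1 size factor per library, scaled within each of 9 tables. The authors' own fold changes and p-values stand in the same tables and were not used. Each comparison was transformed here to log2 of the value plus 1 and fitted by limma 3.58.1 with a mean-variance trend (R 4.3.3) over genes with a mean of at least 10, with Benjamini-Hochberg adjustment over these genes and a threshold of 0.05. Fold changes are on that scale and understate those of low genes. Exact permutation tests were two-sided. Differences of 2 fold changes were tested against both standard errors. Alternatives were a pseudocount of 0.1, no filter, each library left out, a replicate block, the first number of the library name, each colony alone, *Xist* (as a marker of sex) as a covariate, and recovered reads tested by edgeR 4.0.16 and DESeq2 1.42.0 (38 libraries, where 100.0% of values were whole within 0.02 of a read; count tests were not run on the proximal mutant tables). Removal of the length trend (spline with 4 degrees of freedom) and the block in differences of effects were added after the data were seen. Fits were tested on simulated data. Replicate numbers were treated as pairs where at least 3 pairs all had a correlation of deviations over 0.1, which held for *Mtg16*-/- and WT after DSS (0.317 to 0.554) although no label ties a number to a litter or day. All 10 members, 30 pathway genes and 9 marker lists were chosen with earlier results of these data known. The genes named are all members, at most 3 called pathway genes per direction (1 result is not reported here), *Cbfa2t3*, *Xist* and the genes nearest to a member in fold change; *Hoxd13*, *Hoxb13* and *Abca12* were chosen after their values were seen.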

Additional observations from a re-analysis of the deposited data

Results flagged for a closer look

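Among the groups of at least 4 libraries, 60 sets of values of a member were looked at for a library far from the others, and chance alone flags about 1 in 20 of such groups. The 3 that were flagged all lie in distal T/T replicate 4. *Scnn1b* had 606 normalized counts there (219 to 251 in the other 3 libraries), *Scnn1g* had 648 (69 to 131) and *Best2* had 4304 (1720 to 2012).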

How the results depend on the processing

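Of the members' fold changes under the alternatives, 1088 kept their direction and side of the threshold, 48 lost a call, 11 gained one and 72 changed direction, none of these called in either fit. The direction changed with the length trend removed for *Slc12a2* (-0.01) in proximal *Mtg16*-/-, *Cftr* (-0.01) and *Slc12a2* (-0.08) in proximal T/T, *Slc12a2* (-0.03) and *Kcnn4* (-0.01) in distal *Mtg16*-/-, *Atp12a* (0.16) in WT after DSS. Within libraries named 4149, it changed for *Slc26a3* (0.05), *Slc9a3* (-0.51), *Atp12a* (0.56), *Slc12a2* (-0.06) and *Kcnn4* (-0.02) in distal *Mtg16*-/-. The direction changed with the replicate block for *Slc9a3* (-0.35), *Scnn1g* (-0.33) and *Best2* (-0.18) in distal T/T. With *Xist* as a covariate, it changed for *Cftr* (-0.01) and *Kcnn4* (0.1) in *Mtg16*-/- after DSS, *Slc9a3* (0.1), *Cftr* (-0.49), *Slc12a2* (-1.06) and *Kcnn4* (0.34) in T/T after DSS. The direction changed by DESeq2 for *Cftr* (-0.01) in *Mtg16*-/- after DSS, *Slc9a3* (0.06) in T/T after DSS, *Atp12a* (0.02) in T/T tumors. By edgeR, it changed for *Slc9a3* (0.07) in T/T after DSS, *Atp12a* (0.01) in T/T tumors. In proximal *Mtg16*-/-, leaving out 1 library gave *Slc9a3* -0.12 to 1.19, *Scnn1g* -2.13 to 0.25 and *Slc12a2* -0.1 to 0.22. In proximal T/T, leaving out 1 library gave *Slc9a3* -0.3 to 0.58 and *Slc12a2* -0.01 to 0.04. In distal *Mtg16*-/-, leaving out 1 library gave *Slc9a3* -0.27 to 0.68, *Scnn1a* -0.53 to 0.02, *Scnn1b* -0.34 to 0.03, *Atp12a* -2.57 to 0.42, *Slc12a2* -0.02 to 0.13 and *Kcnn4* -0.01 to 0.08. In distal T/T, leaving out 1 library gave *Slc9a3* -0.35 to 0.28, *Scnn1g* -0.33 to 0.74 and *Best2* -0.18 to 0.36. In *Mtg16*-/- after DSS, leaving out 1 library gave *Slc26a3* -0.94 to 0.05, *Slc9a3* -0.11 to 0.83, *Scnn1b* -0.5 to 0.06, *Cftr* -0.27 to 0.23, *Slc12a2* -0.25 to 0.03 and *Kcnn4* -0.17 to 0.22. In T/T after DSS, leaving out 1 library gave *Slc26a3* -0.57 to 0.36, *Slc9a3* -0.29 to 0.28, *Scnn1b* -0.14 to 0.07 and *Kcnn4* -0.4 to 0.03. In T/T tumors, leaving out 1 library gave *Slc26a3* -0.24 to 1.4, *Scnn1a* -0.25 to 0.08, *Scnn1g* -0.02 to 0.66, *Atp12a* -0.67 to 0.23 and *Kcnn4* -0.26 to 0.06.

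Between WT segments 4 members were called with the first number of the library name as a covariate, 3 within libraries named 4149 and 5 in the *Mtg16*-/- colony alone. For these counts and those below, the share of all genes called in each fit is not given. With the replicate block the count was 1 in proximal *Mtg16*-/-, 2 in proximal T/T (1 of them *Atp12a*, under the minimum in T/T) and 2 in *Mtg16*-/- after DSS; it changed no other count by over 1.5 times, and outside that last comparison the numbers do not pair the libraries. In T/T after DSS 1 member was called with *Xist* as a covariate (*Atp12a*, -2.80), where *Xist* was near 0 in all libraries (0 to 0.862 in WT, 0.931 to 4.29 in T/T) and so tells nothing of sex, and 1 by DESeq2 (*Scnn1a*). In WT after DSS none was called with *Xist* as a covariate, and leaving out 1 library gave 0 to 10. For differences between proximal and distal effects, leaving out 1 library gave 0 to 1 in *Mtg16*-/- (*Scnn1b*, -2.41, adjusted p = 0.0399, without proximal *Mtg16*-/- replicate 1) and 0 to 1 in T/T (*Atp12a*, without proximal WT replicate 1, resting on T/T values under the minimum). Between DSS and baseline in *Mtg16*-/-, 1 member (*Atp12a*) was called with the replicate block after DSS and the library labelled distal *Mtg16*-/- replicate 2 left out, and 0 with the block alone. The causes were not tested. With 2 or 3 libraries per group, effects of moderate size may be missed, and low counts of *Atp12a* and *Scnn1g* in proximal colon limit their fold changes there.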
